A study of Rattus norvegicus with 23 samples.

Results

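Chemokine ligands are the small secreted proteins that direct migrating leukocytes, and 32 of their genes were present among the 20301 genes measured in microglia of neonatal rats. They were all genes whose symbol starts with Ccl, Cxcl, Cx3cl or Xcl followed by a number. There were 18 CC ligands, 12 CXC ligands, 1 CX3C ligand (Cx3cl1) and 1 XC ligand (Xcl1), classes that are named after the spacing of their conserved cysteines. The samples were microglia isolated with CD11b/c magnetic beads from Wistar rat pups operated at 7 days of age, and RNA was taken 24 h after the insult. Sham pups (n = 6) had an incision of the neck only, and no injection is listed for them. LPS pups (n = 5) were given 0.1 mg/kg lipopolysaccharide (LPS), a component of the bacterial cell wall, 4 h before the same sham surgery. NaCl/HI pups (n = 6) received saline and LPS/HI pups (n = 6) the same dose of LPS, and hypoxia-ischemia (HI) followed, which was ligation of the left carotid artery with 50 min in 8% oxygen. Sham and LPS samples each came from the entire brain of 1 pup, whereas NaCl/HI and LPS/HI samples each came from the ipsilateral hemispheres of 2 pups. HI, the tissue taken and pooling therefore cannot be told apart, and neither can LPS and the injection itself in LPS against Sham.

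Values are log2 levels after the rlog transformation of the authors, which draws weakly expressed genes toward their mean, so that fold changes given here understate those of low genes. The authors had also corrected for 3 surrogate variables, and the samples spanned 16 rather than 19 dimensions within groups. Such a correction lowers the spread within groups, and p values can come out too low. Counts were not used here and the depth per sample is unknown. The median log2 level of a library lay between 7.75 and 7.82. The labels name the replicates as biological. All 10 microglial markers examined were present, with a mean log2 level between 13.9 and 14.3 in every sample, and 11 of the 32 ligands lay in the lowest 25% of all genes by mean level. All samples entered a single limma fit, from which pairs of groups were compared, with Benjamini-Hochberg adjustment over all genes, and a gene is said to have risen or fallen where the adjusted p was under 0.05. In such bulk samples, fewer cells of a type and less RNA per cell cannot be told apart.

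Chemokines act through receptors on leukocytes. CXC ligands such as Cxcl1 and Cxcl2 recruit neutrophils through CXCR2, CCR2 ligands such as Ccl2 recruit monocytes, Cxcl9, Cxcl10 and Cxcl11 recruit T cells through CXCR3, and Cxcl13 recruits B cells through CXCR5. Microglia and the macrophages of the brain's borders are known sources of several of these ligands when innate immune receptors are engaged, and many of the genes are induced through the transcription factor NF-kB or through interferon.

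Promoters were found for 26 of the 32 ligands in the RefSeq annotation of the rat genome build GRCr8, which is a later build than the mRatBN7.2 used for the deposited values. In the 250 bases before the gene start, the NF-kB consensus was found on either strand in 8 of 26 ligand promoters (30.8%), against 6.33% of all 33469 rat promoters of that length. The core of the interferon-stimulated response element, GAAANNGAA, was found on either strand in 2 of 26 ligand promoters (7.69%), Ccl19 and Cxcl10, against 8.12% of all promoters. Matches to the NF-kB consensus on opposite strands can overlap, shifted by 1 base, and a match describes letters only. The NF-kB consensus was held by the promoters of Ccl7, Ccl9, Ccl20, Cxcl1, Cxcl2, Cxcl6, Cxcl10 and Cxcl11. The 120 bases before the start of Cxcl1 (chr14:17479322-17479441, minus strand), Cxcl2 (chr14:17467256-17467375, minus strand), Cxcl6 (chr14:17596418-17596537, minus strand) and Ccl7 (chr10:67513975-67514094, plus strand) are shown first, with the consensus in capitals, because 3 of them are the neutrophil-attracting ligands and Ccl7 is the ligand of the 4 that changed. They are followed by those of Cxcl13 (chr14:13917921-13918040, minus strand), Cxcl17 (chr1:90124536-90124655, minus strand), Ccl6 (chr10:68883367-68883486, minus strand) and Ccl24 (chr12:26737303-26737422, plus strand), which changed against Sham and hold neither motif. Ccl17 and Ccl22, which changed between LPS and NaCl/HI, also hold neither and are not shown.
Cxcl1: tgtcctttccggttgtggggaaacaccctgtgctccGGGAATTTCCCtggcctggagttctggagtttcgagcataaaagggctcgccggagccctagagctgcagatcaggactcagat
Cxcl2: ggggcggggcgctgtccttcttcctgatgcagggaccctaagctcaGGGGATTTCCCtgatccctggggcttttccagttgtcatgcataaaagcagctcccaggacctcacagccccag
Cxcl6: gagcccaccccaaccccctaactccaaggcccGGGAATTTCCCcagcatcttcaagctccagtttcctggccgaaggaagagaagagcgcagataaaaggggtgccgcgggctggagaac
Ccl7: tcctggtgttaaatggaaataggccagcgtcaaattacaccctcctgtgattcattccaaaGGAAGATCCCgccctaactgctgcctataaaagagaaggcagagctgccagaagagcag
Cxcl13: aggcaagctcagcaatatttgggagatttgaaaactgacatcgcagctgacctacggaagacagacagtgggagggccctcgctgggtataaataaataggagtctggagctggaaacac
Cxcl17: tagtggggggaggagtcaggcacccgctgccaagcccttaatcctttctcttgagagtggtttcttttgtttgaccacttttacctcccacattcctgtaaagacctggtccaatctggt
Ccl6: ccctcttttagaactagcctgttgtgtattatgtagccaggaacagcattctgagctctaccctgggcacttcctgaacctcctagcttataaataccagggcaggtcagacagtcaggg
Ccl24: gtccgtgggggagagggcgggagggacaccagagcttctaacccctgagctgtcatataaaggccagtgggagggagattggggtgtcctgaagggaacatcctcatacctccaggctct

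**Figure D1:**
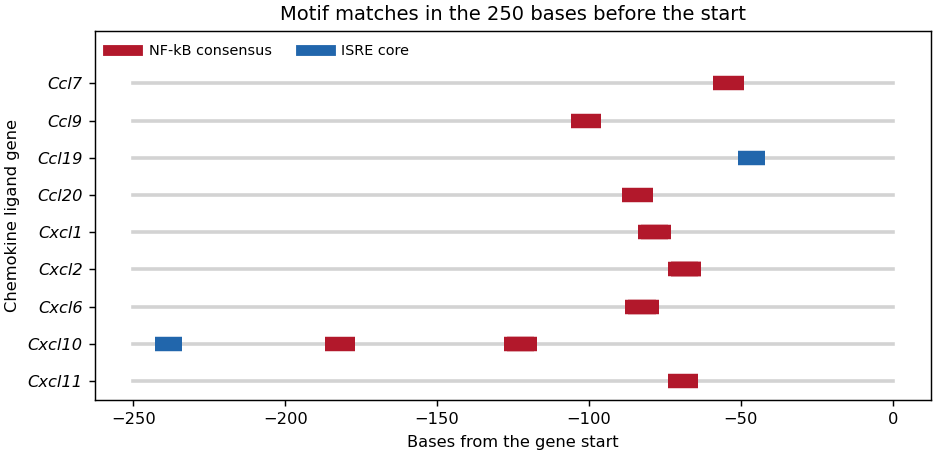
Matches to the NF-kB consensus (red) and to the interferon-stimulated response element core (blue) in the ligand promoters that hold one. The x axis gives bases from the gene start and each row is 1 ligand gene. In Ccl7, Ccl20, Cxcl1, Cxcl2, Cxcl6 and Cxcl11 the NF-kB match lay between -89 and -50, whereas that of Ccl9 began at -106 and those of Cxcl10 at -187 and -128.

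To find out which ligands responded to LPS alone, LPS was compared with Sham. Ccl6, Cxcl13 and Cxcl17 rose and Ccl2, Ccl7 and Ccl24 fell. These were 3 of 32 ligands in each direction, while 10.2% of all genes rose and 7.56% fell, so the ligands' shares were close to those of all genes. None of the 6 passed a fold change of 2, which 0.069% of all genes did together with the adjusted p. The median log2 difference of the 32 ligands was -0.00501, beside -0.0144 over all genes. The 26 other ligands did not pass the test, and they included all 4 neutrophil-attracting ligands measured.

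Of the 3 CCR2 ligands, Ccl2 and Ccl7 fell in LPS and Ccl12 did not pass the test. Ccl2 attracts monocytes and is a classic product of activated macrophages. Its log2 level was between 10.51 and 11.01 in Sham (median 10.78). In the LPS samples it was 9.98, 9.996, 10.37, 9.76 and 10.36. Thus every LPS sample lay below every Sham sample. In NaCl/HI its level ran from 10.30 to 10.88 (median 10.65), and in LPS/HI from 10.22 to 10.61 (median 10.38), ranges that overlapped with Sham. Ccl2 fell by 0.66 ± 0.12 (SE) on the log2 scale in LPS against Sham, or 1.58-fold (limma, adjusted p = 0.00076). It was also lower in LPS than in NaCl/HI, by a log2 difference of -0.53 ± 0.12 (SE, limma, adjusted p = 0.00799). For LPS/HI against Sham the log2 difference of -0.37 did not pass the test (limma, adjusted p = 0.0518).

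Ccl7, which shares CCR2 with Ccl2 and lies next to it on chromosome 10, fell in LPS as well. Its log2 level ran from 9.76 to 10.51 in Sham (median 10.43), from 10.09 to 10.42 in NaCl/HI (median 10.30) and from 9.81 to 10.16 in LPS/HI (median 10.01). The LPS samples were at 9.37, 9.36, 9.80, 9.25 and 9.69. All LPS samples were below all NaCl/HI and all LPS/HI samples, and only the highest LPS sample reached above the lowest Sham sample. Ccl7 fell by 0.76 ± 0.12 (SE) in LPS against Sham, or 1.70-fold (limma, adjusted p = 0.000213), and its log2 difference between LPS and NaCl/HI was -0.80 ± 0.12 (SE, limma, adjusted p = 0.000302). In LPS/HI it was higher than in LPS alone, by 0.51 ± 0.12 (SE) or 1.43-fold (limma, adjusted p = 0.0371), a call that was lost when replicate 1, 2 or 4 of LPS, or replicate 1, 2, 5 or 6 of LPS/HI, was left out (limma, adjusted p between 0.0603 and 0.136). LPS/HI and Sham differed by -0.25 in Ccl7, which did not pass the test (limma, adjusted p = 0.179).

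Ccl12, the remaining CCR2 ligand measured, had in Sham the largest SD of any ligand in any group (1.04). Its log2 level was between 7.16 and 9.78 in Sham (median 9.54) and between 9.58 and 10.97 in NaCl/HI (median 9.84). In LPS it was 8.20, 9.72, 9.78, 9.88 and 9.34, and in LPS/HI it ran from 9.32 to 10.35 (median 9.80). The groups overlapped throughout, and 1 Sham sample at 7.16 and 1 at 8.47 lay below the others. The log2 difference was 0.99 ± 0.38 (SE) for NaCl/HI against Sham (limma, adjusted p = 0.242) and 0.35 ± 0.40 (SE) for LPS against Sham (limma, adjusted p = 0.584), and neither passed. Both differences depend on the low Sham samples, since the Sham mean was 9.03 and the Sham median 9.54, beside an LPS mean of 9.38. Ccl11, which lies between Ccl7 and Ccl12 with no other protein-coding gene among the 4, had a log2 difference of 0.01 in LPS against Sham (limma, adjusted p = 0.971).

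Ccl24 is an eotaxin, a ligand of CCR3 that attracts eosinophils, and is made by alternatively activated macrophages. It ran from 9.34 to 9.94 in Sham (median log2 level 9.59) and from 9.44 to 9.87 in NaCl/HI (median 9.68). In LPS/HI it ran from 8.95 to 9.45 (median 9.20). LPS samples had log2 levels of 8.71, 8.88, 8.93, 8.99 and 8.95, all below every Sham and every NaCl/HI sample, while the LPS and LPS/HI ranges overlapped at their ends. Ccl24 fell by 0.72 ± 0.11 (SE) or 1.65-fold in LPS against Sham (limma, adjusted p = 6.65e-05) and by 0.43 ± 0.10 (SE) or 1.34-fold in LPS/HI against Sham (limma, adjusted p = 0.0148), which the exact Wilcoxon test did not call (exact test, adjusted p = 0.0612). Against NaCl/HI, its log2 difference was -0.78 ± 0.11 (SE) in LPS (limma, adjusted p = 9.22e-05) and -0.49 ± 0.10 (SE) in LPS/HI (limma, adjusted p = 0.0464). It was the only ligand that passed the test in every comparison of a group given LPS with a group that was not, but the call of LPS/HI against NaCl/HI was lost when any 1 of 20 of the 23 samples was left out (limma, adjusted p between 0.0501 and 0.124). The other eotaxins, Ccl11 and Ccl26, did not pass in any comparison (only Ccl26 in LPS/HI against Sham had an unadjusted p under 0.05), and Ccl26, the neighbour of Ccl24 on chromosome 12, was between -0.46 and -0.30 in all samples.

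The markers of border-associated macrophages, the CD11b-positive macrophages of the meninges and vessel walls, were mixed. Of 6 measured, Mrc1 (-0.50, limma, adjusted p = 0.0327) and Lyve1 (-0.83, limma, adjusted p = 3.39e-05) fell in LPS against Sham and Cbr2 rose by 0.18 (limma, adjusted p = 0.00517), while 3 did not pass, and over all genes 7.56% fell and 10.2% rose. The median log2 difference of the list was -0.48 in LPS against Sham, -0.20 in NaCl/HI against Sham, where none of the 6 passed and Cd163 had the lowest value (-0.52, limma, adjusted p = 0.325), and 0.24 in LPS/HI against LPS, where Ccl7 rose and none of the 6 passed. Its mean log2 level ran from 10.80 to 11.51 in Sham, from 10.65 to 10.98 in LPS, from 10.67 to 11.21 in NaCl/HI and from 10.80 to 11.08 in LPS/HI, and none of the 6 was near 0. Lyve1 also fell in LPS/HI against Sham (-0.60, limma, adjusted p = 0.00347). Of 10 microglial markers, 5 were lower (7.56% of all genes) and 1 higher (10.2%) in LPS against Sham, with a median log2 difference of -0.21. The part of either list in the fall of Ccl2, Ccl7 and Ccl24 was not tested.

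**Figure D2:**
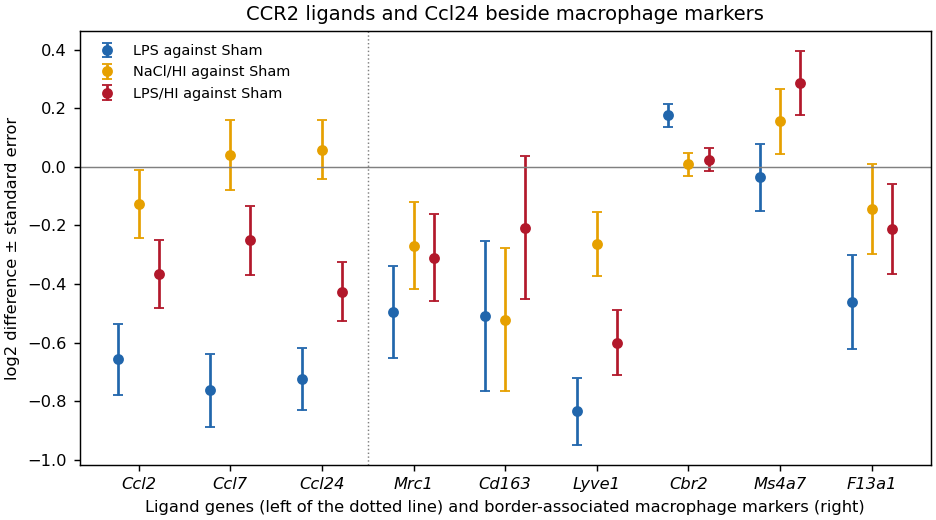
Log2 differences (y axis) of LPS (blue), NaCl/HI (yellow) and LPS/HI (red) against Sham for Ccl2, Ccl7 and Ccl24 (left of the dotted line) and 6 border-associated macrophage markers (right). Points are limma estimates and bars their standard errors, and the 3 comparisons share the Sham samples. In LPS all 3 ligands lay between -0.76 and -0.66, whereas in NaCl/HI they lay between -0.13 and 0.06, and the markers in LPS ran from -0.83 for Lyve1 to 0.18 for Cbr2.

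Among the 5 CC ligands Ccl3, Ccl4, Ccl5, Ccl6 and Ccl9, Ccl6 was the only one that passed the limma test, so that 1 of 5 rose in LPS against Sham, beside 10.2% of all genes, and 1 of 5 in LPS/HI against Sham, beside 5.3%. Ccl5 was called by the exact Wilcoxon test in LPS/HI against Sham (exact test, adjusted p = 0.034). Ccl6 is a rodent CC chemokine made by myeloid cells that attracts monocytes and macrophages. Its log2 level was between 9.10 and 9.67 in Sham (median 9.45). It was 10.10, 9.90, 10.20, 9.68 and 10.18 in LPS, between 9.36 and 10.41 in NaCl/HI (median 10.05) and between 10.07 and 10.36 in LPS/HI (median 10.20). Every LPS and every LPS/HI sample lay above every Sham sample, although the lowest LPS sample exceeded the highest Sham sample only narrowly, and NaCl/HI overlapped with all groups. Ccl6 rose by 0.61 ± 0.15 (SE) or 1.53-fold in LPS against Sham (limma, adjusted p = 0.00598) and by 0.81 ± 0.14 (SE) or 1.75-fold in LPS/HI against Sham (limma, adjusted p = 0.00248). In NaCl/HI against Sham its log2 difference of 0.56 ± 0.14 (SE) did not pass after adjustment over all genes (limma, adjusted p = 0.119), and no comparison among the 3 groups other than Sham passed.

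Ccl9, which lies next to Ccl6 on chromosome 10 and shares CCR1, had samples at both ends of its range within groups. In Sham its log2 level was between 8.15 and 9.44 (median 8.38), and in LPS it was 8.13, 8.02, 9.70, 8.12 and 9.65. NaCl/HI ran from 8.32 to 9.92 (median 9.60) and LPS/HI from 8.79 to 9.72 (median 9.35). No pair of groups was separated, and the log2 difference of 0.77 ± 0.33 (SE) for NaCl/HI against Sham did not pass (limma, adjusted p = 0.291). Ccl3 and Ccl4, classic inflammatory products of microglia, ranged between 13.70 and 14.13 and between 12.88 and 13.70 in all samples, and their log2 differences in LPS against Sham were 0.00 and -0.19. Ccl5 was between 1.98 and 2.38 in all samples. Its Sham and LPS/HI ranges did not overlap, but they were 0.10 apart in the mean (limma, adjusted p = 0.249). A two-sided exact Wilcoxon test on the ranks, also adjusted over all genes, did call Ccl5 in LPS/HI against Sham (exact test, adjusted p = 0.034).

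Cxcl13 had the largest rise of any ligand. It is made by macrophages, microglia and stromal cells and guides B cells through CXCR5. Its log2 level was between 3.81 and 4.63 in Sham (median 4.08), and 5.35, 5.25, 4.82, 5.05 and 4.14 in LPS. NaCl/HI samples ran from 3.90 to 5.54 (median 4.56) and LPS/HI samples from 4.66 to 5.65 (median 5.36). The LPS/HI and Sham samples did not overlap, the lowest LPS/HI sample lying just above the highest Sham sample. All but 1 LPS sample lay above Sham, and NaCl/HI spanned both. In NaCl/HI, replicates 1 to 3 (4.67, 5.54 and 5.03) lay above replicates 4 to 6 (3.90, 4.46 and 4.44). Cxcl13 rose by 1.17 ± 0.24 (SE) or 2.25-fold in LPS/HI against Sham (limma, adjusted p = 0.00744), the only ligand past a fold change of 2 in any comparison. It rose by 0.80 ± 0.26 (SE) or 1.74-fold in LPS against Sham (limma, adjusted p = 0.0346), a call that the exact Wilcoxon test did not make (exact test, adjusted p = 0.101) and that was lost when the LPS replicate 1, 2, 3 or 4 or the Sham replicate 1, 3 or 5 was left out (limma, adjusted p between 0.0508 and 0.095). For NaCl/HI against Sham and LPS/HI against NaCl/HI, the differences of 0.55 and 0.62 did not pass (limma, adjusted p = 0.305 and 0.349). The receptor gene Cxcr5 had group means between 5.78 and 5.83. Of 4 B cell markers, Cd79b rose in LPS (0.52, beside 10.2% of all genes) and in LPS/HI (0.35, beside 5.3%) against Sham and the others did not pass. The mean log2 level of the list was 3.77 ± 0.07 in Sham, 3.92 ± 0.09 in LPS, 3.77 ± 0.04 in NaCl/HI and 3.89 ± 0.05 in LPS/HI (SD). The part of these markers in the Cxcl13 values was not tested.

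Cxcl17, a ligand known mainly from mucosal tissue, had its highest mean in LPS. Its log2 level was between 7.52 and 7.92 in Sham (median 7.72), between 7.59 and 8.08 in NaCl/HI (median 7.83) and between 7.81 and 8.44 in LPS/HI (median 7.90). In LPS it was 8.60, 8.33, 8.21, 8.73 and 8.62. LPS samples lay above all Sham and NaCl/HI samples, and 1 LPS/HI sample, at 8.44, reached into their range. Cxcl17 rose by 0.78 ± 0.11 (SE) or 1.71-fold in LPS against Sham (limma, adjusted p = 6.28e-05). It was higher in LPS than in NaCl/HI by 0.65 ± 0.11 (SE, limma, adjusted p = 0.000754) and lower in LPS/HI than in LPS by a log2 difference of -0.51 ± 0.11 (SE, limma, adjusted p = 0.0243). The latter call was lost when replicate 1, 4 or 5 of LPS, or replicate 1, 2 or 5 of LPS/HI, was left out (limma, adjusted p between 0.0501 and 0.0956). In LPS/HI against Sham, Cxcl17 had a log2 difference of 0.27 ± 0.11 (SE), which did not pass (limma, adjusted p = 0.119). For the interaction of LPS with HI, which asks whether the LPS difference changed with HI, Cxcl17 had a log2 difference of -0.63 ± 0.16 (SE, limma, adjusted p = 0.0514) and did not pass. Of the genes listed as homeostatic with it, Cxcl12, Cxcl14 and Cx3cl1 did not pass in any comparison. At an unadjusted p under 0.05, with Cxcl17 included, the count was 3 of 4 for the interaction (15.1% of all genes), 2 of 4 in LPS/HI against LPS (15.5%), 1 of 4 in LPS against Sham (32%), LPS/HI against Sham (26.8%) and LPS against NaCl/HI (23%) and 0 of 4 in the other comparisons. Cx3cl1, the neuronal ligand of the microglial receptor CX3CR1, ran from 7.44 to 7.82 in Sham (median 7.66), from 7.30 to 7.67 in NaCl/HI (median 7.52) and from 7.38 to 7.88 in LPS/HI (median 7.75), and was 7.37 to 7.55 in LPS (median 7.52). Its groups overlapped, and its log2 difference in LPS against Sham was -0.17 ± 0.09 (SE, limma, adjusted p = 0.211).

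**Figure D3:**
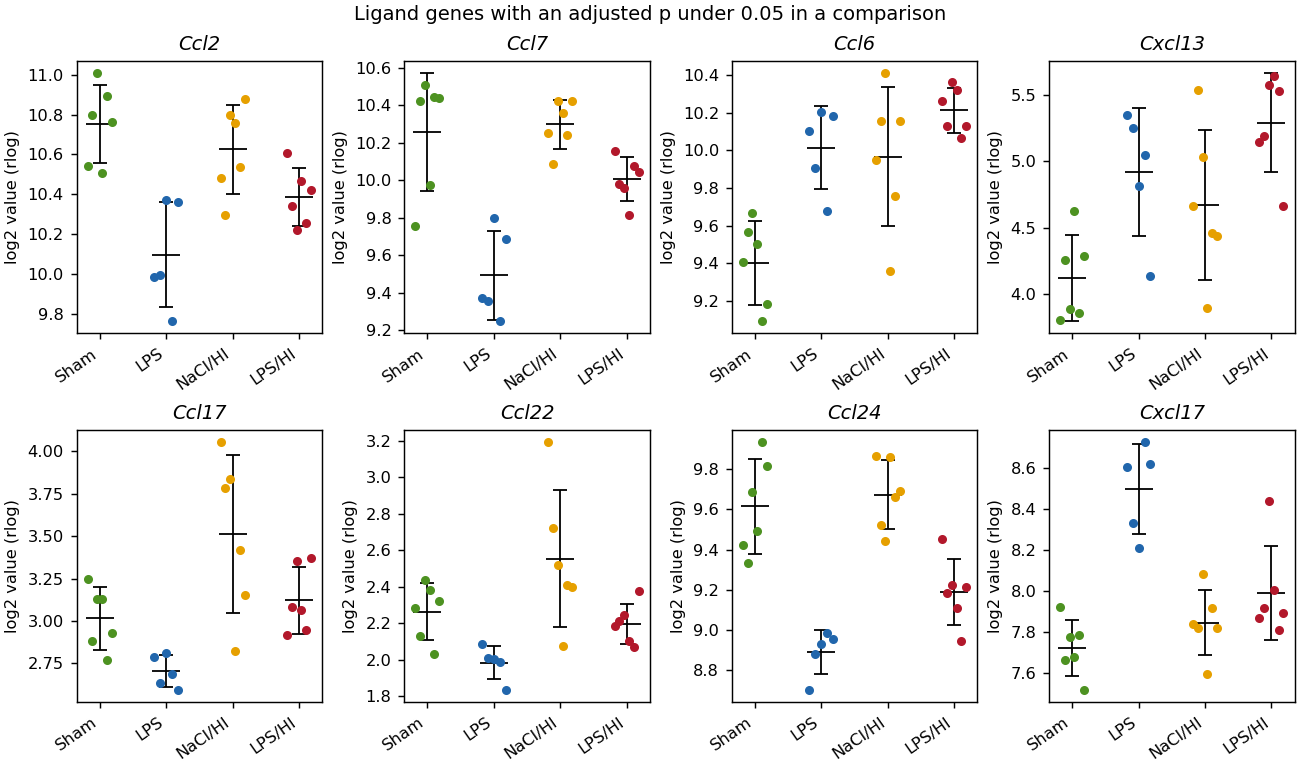
Log2 levels (rlog, y axis) of the 8 ligand genes that passed the test in at least 1 comparison, by group. Points are samples, horizontal lines means and bars SD (n = 6 for Sham, NaCl/HI and LPS/HI, n = 5 for LPS), and each panel has its own scale. The LPS mean was the lowest for Ccl2, Ccl7, Ccl17, Ccl22 and Ccl24 and the highest for Cxcl17, and the LPS/HI mean was the highest for Ccl6 and Cxcl13.

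Ccl17 and Ccl22 attract T cells through CCR4 and are made by dendritic cells and macrophages. They flank Cx3cl1 on chromosome 19, with no other protein-coding gene between them. Ccl17 was between 2.77 and 3.25 in Sham (median log2 level 3.03), between 2.82 and 4.05 in NaCl/HI (median 3.60) and between 2.92 and 3.37 in LPS/HI (median 3.07). LPS samples were at 2.79, 2.64, 2.81, 2.69 and 2.60, below all samples of both HI groups. For Ccl22, Sham was between 2.03 and 2.44 (median 2.30), NaCl/HI between 2.08 and 3.19 (median 2.47) and LPS/HI between 2.07 and 2.38 (median 2.20), and the LPS values were 2.09, 2.01, 2.00, 1.99 and 1.84. Both lay in the lowest 25% of genes by rlog level, and the NaCl/HI samples were the most scattered for both. In NaCl/HI, replicates 1 to 3 lay above replicates 4 to 6 for both. Ccl17 was at 4.05, 3.78 and 3.84 against 2.82, 3.42 and 3.15, and Ccl22 at 3.19, 2.72 and 2.52 against 2.08, 2.41 and 2.40. In LPS against NaCl/HI, Ccl17 had a log2 difference of -0.81 ± 0.16 (SE, limma, adjusted p = 0.003) and Ccl22 of -0.57 ± 0.13 (SE, limma, adjusted p = 0.00724, or 0.073 with only these groups in the fit), while Cx3cl1 between them had -0.03 (limma, adjusted p = 0.907). Against Sham, neither passed with limma, with log2 differences of 0.50 and 0.29 in NaCl/HI and -0.31 and -0.28 in LPS. The exact Wilcoxon test called Ccl22 in LPS against Sham (exact test, adjusted p = 0.0452).

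Of the other lymphocyte-attracting ligands, Ccl19, Ccl20, Ccl25, Ccl27, Ccl28, Cxcl16 and Xcl1, none passed with limma in any comparison. Over all 10 lymphocyte-attracting ligands, with Cxcl13, Ccl17 and Ccl22 included, the count at an unadjusted p under 0.05 was 5 in LPS/HI against NaCl/HI (10.6% of all genes), 4 in NaCl/HI against Sham (14.8%), 4 in LPS against NaCl/HI (23%), 3 in LPS against Sham (32%), 2 in LPS/HI against Sham (26.8%), 2 in LPS/HI against LPS (15.5%) and 0 for the interaction of LPS with HI (15.1%). Cxcl16, a membrane-bound ligand of CXCR6, came closest. Its log2 level was 10.89 to 11.07 in Sham (median 10.98) and 11.08 to 11.66 in LPS/HI (median 11.27), so that these groups did not overlap. The difference of 0.33 ± 0.11 (SE) did not pass with limma (adjusted p = 0.052), whereas the exact Wilcoxon test called it (exact test, adjusted p = 0.034). Ccl20, Ccl25 and Xcl1 stayed within 0.04 to 0.26, 1.36 to 1.54 and 1.17 to 1.48 in all samples. At such low rlog levels a change may not have been detectable.

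The ligands of CXCR2 attract neutrophils, and none of Cxcl1, Cxcl2, Cxcl3 and Cxcl6 passed the limma test in any of the 7 comparisons. Of 10 neutrophil markers, 3 passed in LPS/HI against Sham, where 5.3% of all genes rose and 3.48% fell: S100a8, S100a9 and Retnlg rose by 1.11, 1.18 and 0.72 (limma, adjusted p = 0.0262, 0.0193 and 0.0347). The other 7 did not pass, the lowest being Ngp at -0.58 (limma, adjusted p = 0.0939), and the list had a median log2 difference of 0.15. At an unadjusted p under 0.05 with limma, the count of these 4 ligands was 2 in LPS/HI against Sham (26.8% of all genes), 2 in LPS/HI against NaCl/HI (10.6%), 2 for the interaction of LPS with HI (15.1%), 1 in NaCl/HI against Sham (14.8%), 1 in LPS/HI against LPS (15.5%) and 0 in LPS against Sham (32%) and LPS against NaCl/HI (23%). The exact Wilcoxon test called Cxcl3 in LPS/HI against Sham (exact test, adjusted p = 0.044). Cxcl1 ran from 9.14 to 9.56 in Sham (median log2 level 9.39), from 8.65 to 9.54 in NaCl/HI (median 9.22) and from 9.13 to 9.99 in LPS/HI (median 9.59), and was 9.35, 9.32, 9.48, 9.15 and 9.32 in LPS. All groups overlapped, with NaCl/HI reaching lowest and LPS/HI highest. The low NaCl/HI values were those of replicates 1 to 3 (9.10, 8.65 and 8.94), while replicates 4 to 6 were at 9.39, 9.54 and 9.35. The log2 difference in Cxcl1 was 0.43 (95% confidence interval 0.14 to 0.73) for LPS/HI against NaCl/HI (limma, adjusted p = 0.232) and -0.03 (95% confidence interval -0.34 to 0.28) for LPS against Sham.

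Cxcl2 was nearly level across the groups, between 11.98 and 12.46 in Sham (median log2 level 12.13), 11.97 and 12.42 in LPS (median 12.16), 11.67 and 12.24 in NaCl/HI (median 12.05) and 11.94 and 12.34 in LPS/HI (median 12.17). Its differences against Sham were 0.01 in LPS, -0.15 in NaCl/HI and -0.01 in LPS/HI. NaCl/HI replicates 1 to 3 of Cxcl2 (11.92, 11.67 and 11.95) lay below replicates 4 to 6 (12.24, 12.16 and 12.19), as they did for Cxcl1 and Cxcl3. Cxcl3 was between 4.24 and 4.60 in LPS/HI and between 3.97 and 4.29 in Sham, a difference of 0.26 ± 0.10 (SE, limma, adjusted p = 0.101), and Cxcl6 went the other way, at -0.19 ± 0.07 (SE, limma, adjusted p = 0.0996). Of the 10 neutrophil markers, Ngp and Camp fell in LPS against Sham, by 1.07 and 0.71 on the log2 scale (limma, adjusted p = 0.00261 and 0.0442), Csf3r rose by 0.24 (limma, adjusted p = 0.0164) and 7 did not pass, beside 7.56% of all genes that fell and 10.2% that rose.

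Cxcl9, Cxcl10 and Cxcl11 are interferon-inducible ligands of the T cell receptor CXCR3 and lie side by side on chromosome 14. None passed the limma or the exact Wilcoxon test in any comparison, and 2 of 3 had an unadjusted p under 0.05 with limma in LPS against Sham (32% of all genes) and in LPS/HI against Sham (26.8%). Cxcl10 was between 8.73 and 9.22 in Sham (median log2 level 8.98), 8.81 and 9.10 in NaCl/HI (median 8.99) and 8.92 and 9.32 in LPS/HI (median 9.15), and ran from 9.04 to 9.27 in LPS (median 9.12). The overlap was broad, with a log2 difference of 0.18 ± 0.09 (SE) in LPS against Sham (limma, adjusted p = 0.15). Cxcl11 differed by 0.43 in both LPS (limma, adjusted p = 0.0609) and LPS/HI (limma, adjusted p = 0.0729) against Sham, and Cxcl9 by 0.23 and 0.19. Cxcr3 itself rose in LPS against Sham by 0.54 (limma, adjusted p = 0.00751), was lower in LPS/HI than in LPS (-0.67, limma, adjusted p = 0.0123), and differed by 0.82 between LPS and NaCl/HI (limma, adjusted p = 0.000414).

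**Figure D4:**
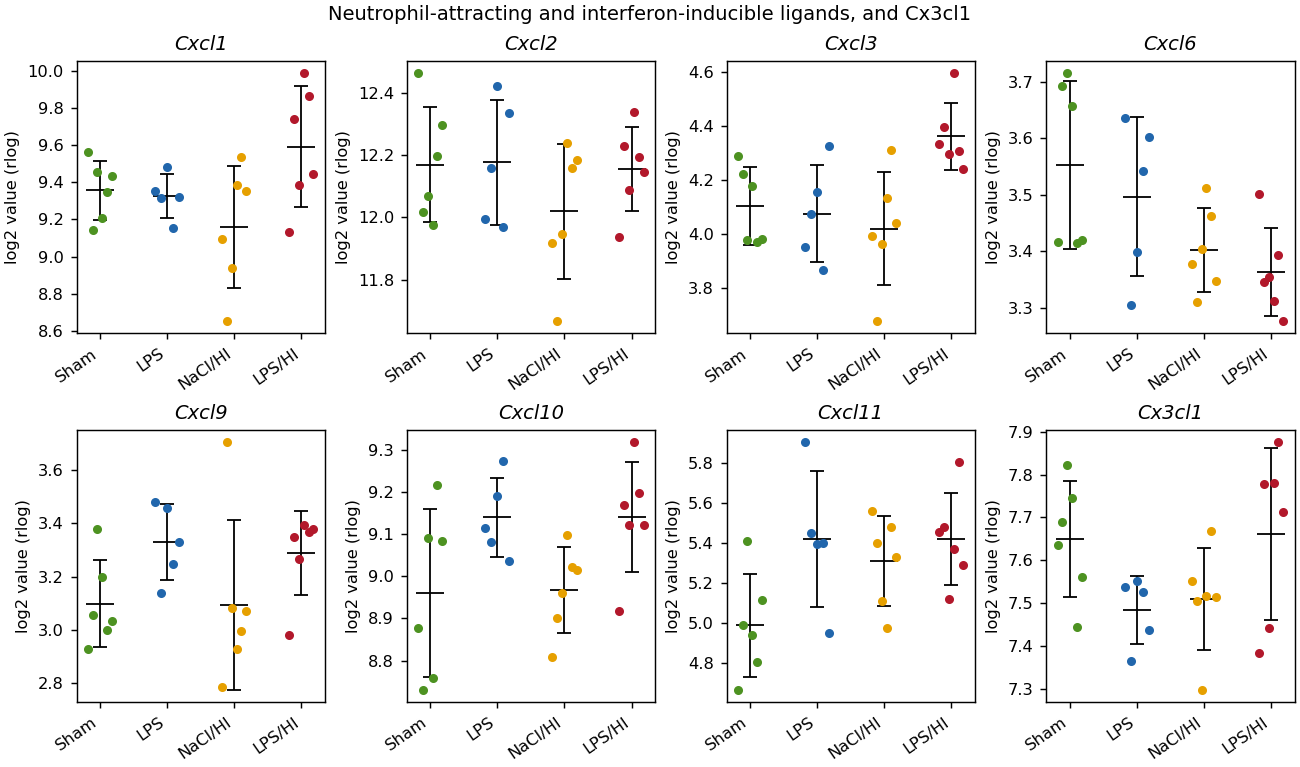
Log2 levels (rlog, y axis) of the neutrophil-attracting ligands Cxcl1, Cxcl2, Cxcl3 and Cxcl6, the CXCR3 ligands Cxcl9, Cxcl10 and Cxcl11, and Cx3cl1, by group. Points are samples, horizontal lines means and bars SD (n = 6, or 5 for LPS), and each panel has its own scale. Groups overlapped for all 8 genes, and the mean of Cxcl3 was highest in LPS/HI, at 4.36.

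To find out what HI alone and HI after LPS did, both HI groups were compared with Sham. In NaCl/HI against Sham no ligand passed, at a background of 0.00985% of all genes (0.00493% with a fold change above 2), and 9 of 32 had an unadjusted p under 0.05 with limma, beside 14.8% of all genes. The exact Wilcoxon test called none either. The largest log2 differences were 0.99 for Ccl12, 0.77 for Ccl9, 0.56 for Ccl6, 0.55 for Cxcl13 and 0.50 for Ccl17. The value for Ccl12 includes the Sham sample at 7.16, beside a Sham median of 9.54. In LPS/HI against Sham, 2 ligands rose (Cxcl13 and Ccl6) while 5.3% of all genes rose, and 1 fell (Ccl24) while 3.48% fell, and 1 passed a fold change of 2 beside 0.0936% of all genes. The comparisons of LPS, NaCl/HI and LPS/HI with Sham share the Sham samples.

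LPS/HI was compared with LPS to ask what HI added, and with NaCl/HI to ask what LPS added. Against LPS, Ccl7 was higher (background 1.22%) and Cxcl17 lower (background 0.719%), and 22 of 32 ligands had a higher mean in LPS/HI, with a median log2 difference of 0.12 beside 0.00164 over all genes. In the same comparison all 7 markers of mural cells and fibroblasts had a higher mean (median log2 difference 0.28, 2 passed), as had all 6 of endothelium (median 0.27, 2 passed). Of 10 neutrophil markers, 9 had a higher and 1 a lower mean (median 0.57). None of these 10 passed, and 7 had an unadjusted p under 0.05 with limma, beside 15.5% of all genes. Of 5 oligodendrocyte lineage markers, 3 had a higher and 2 a lower mean (median 0.47), and none passed. The part of these markers in the ligand values was not tested. Against NaCl/HI, no ligand was higher (background 0.153%) and Ccl24 was lower (background 0.0493%), and 10 of 32 had an unadjusted p under 0.05, beside 10.6% of all genes. LPS against NaCl/HI had 1 ligand higher, Cxcl17 (background 5.32%), and 5 lower, Ccl2, Ccl7, Ccl17, Ccl22 and Ccl24 (background 3.66%). All 5 were CC ligands, and the other 13 of the 18 CC ligands did not pass there. The exact Wilcoxon test called no ligand in these 3 comparisons. No ligand passed a fold change of 2 in them, beside 0.0345%, 0.0148% and 0.0591% of all genes. In LPS/HI against LPS and LPS against NaCl/HI, ligands without overlap such as Ccl7 had an adjusted p of 0.104 and 0.0593 (exact test). No smaller p is possible at these sample sizes, so the exact test could call no ligand in those comparisons. For the interaction of LPS with HI no ligand passed (background 1.08%, and 0.00985% with a fold change above 2), and 7 of 32 had an unadjusted p under 0.05, beside 15.1% of all genes.

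**Figure D5:**
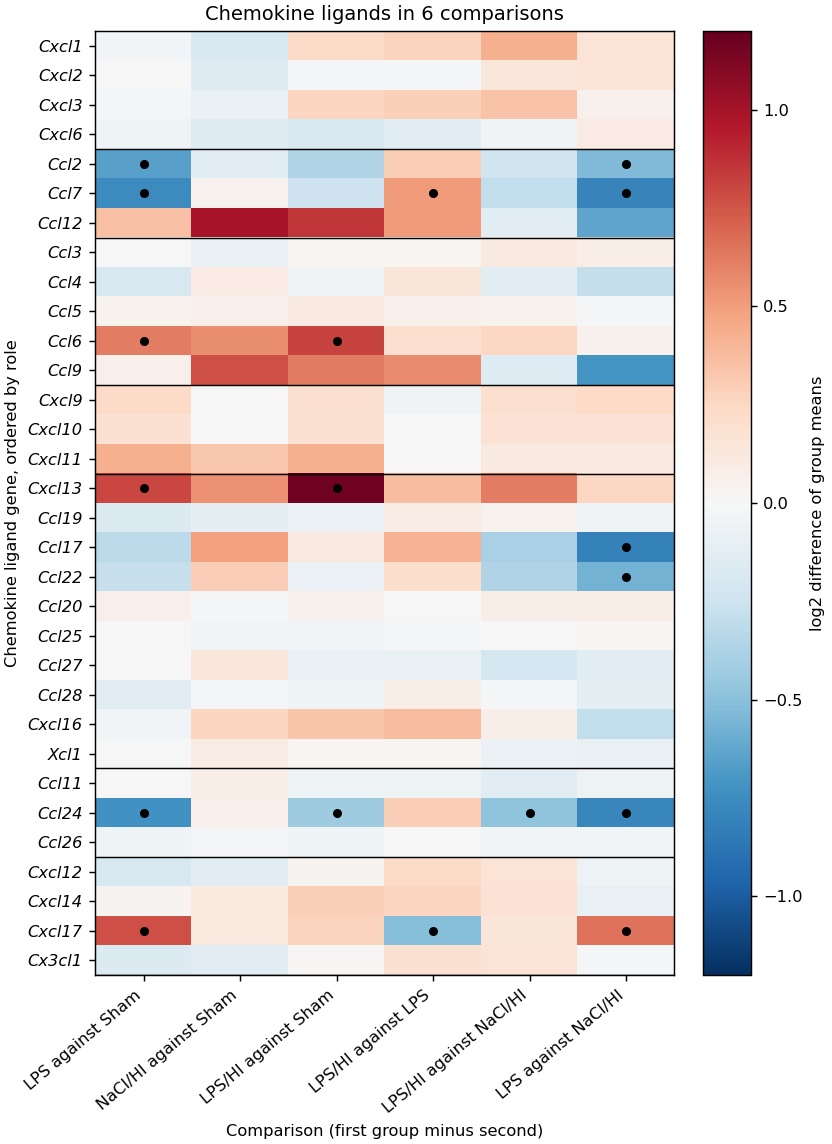
Log2 differences of group means (colour) for the 32 ligand genes (rows, ordered by role, with lines between roles) in 6 comparisons (columns, first group minus second). Dots mark an adjusted p under 0.05 with limma. Dots stand at 6 genes in LPS against Sham, none in NaCl/HI against Sham, 3 in LPS/HI against Sham, 2 in LPS/HI against LPS, 1 in LPS/HI against NaCl/HI and 6 in LPS against NaCl/HI.

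Of 20 chemokine receptor genes measured, Ccr6 (0.32) and Cxcr3 (0.54) rose in LPS against Sham and Ccr3 (-0.33), Cxcr1 (-0.31) and Cx3cr1 (-0.17) fell, so that 2 of 20 rose beside 10.2% of all genes and 3 of 20 fell beside 7.56%. Ccr3 is the receptor of Ccl24, and Cx3cr1 marks microglia. In LPS against NaCl/HI, where 5.32% of all genes were higher and 3.66% lower, receptors that passed included Ccrl2 (0.24) and Cxcr3, which were higher, and the lymphoid homing receptor Ccr7 (-0.50) and the Cxcl12 receptor Cxcr4 (-0.55), which were lower. Ackr1, an endothelial receptor that binds chemokines without signalling, was the only receptor that passed in LPS/HI against Sham, where it rose by 0.41 (limma, adjusted p = 0.0459, beside 5.3% of all genes), and in LPS/HI against NaCl/HI, where it was higher by 0.61 (limma, adjusted p = 0.046, beside 0.153%). No receptor passed in NaCl/HI against Sham, where 4 of 20 had an unadjusted p under 0.05 with limma, beside 14.8% of all genes. Ccr2, the receptor of Ccl2 and Ccl7, did not pass in any comparison.

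Of 15 genes that induce chemokines or limit their induction, Il1b (0.43), Nfkb1 (0.14) and Irf7 (0.40) rose in LPS against Sham, beside 10.2% of all genes, and Il6 (-0.30) fell, beside 7.56%. Il1b encodes the cytokine interleukin-1 beta, Nfkb1 a subunit of NF-kB and Irf7 an interferon regulatory factor. In LPS/HI against Sham, Irf7 (0.54) and Stat3 (0.16) rose, beside 5.3% of all genes. In LPS against NaCl/HI, Il1b (0.54), Nfkb1 (0.20) and Nfkb2 (0.24) were higher, beside 5.32%. Tnf, Rela, Nfkbia and Tnfaip3 did not pass in any comparison. Mif, a chemokine-like cytokine outside the symbol rule, rose in LPS against Sham by 0.54 (limma, adjusted p = 0.00249), while Pf4 and Cklf did not pass. Of 5 monocyte markers, Plac8 alone passed in LPS against Sham, where Ccl2 and Ccl7 fell, and it rose by 1.17 (limma, adjusted p = 2.86e-06). F13a1 was at -0.46 (limma, adjusted p = 0.0516) and Ccr2 at -0.18, and the list had a median log2 difference of 0.03. Of the other cell markers in LPS against Sham, where 10.2% of all genes rose and 7.56% fell, 1 of 6 for endothelium rose and 3 fell, 1 of 6 for astrocytes rose and 3 of 5 for neurons fell. None passed of 7 for mural cells and fibroblasts, 5 for T and NK cells, 5 for the oligodendrocyte lineage and 3 for platelets (limma, with 1, 1, 0 and 0 at an unadjusted p under 0.05). In LPS/HI against Sham, where 5.3% of all genes rose and 3.48% fell, 1 marker of endothelium, 1 of astrocytes, 3 of mural cells and fibroblasts and 1 of T and NK cells rose and 2 of neurons fell. None passed there for the oligodendrocyte lineage or platelets (limma, with 0 and 0 at an unadjusted p under 0.05). The part of these markers in the ligand values was not tested.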

How the data were processed

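RNA of isolated microglia was sequenced by the authors, who quantified the reads with kallisto 0.48.0 on mRatBN7.2 transcripts (FastQC 0.11.9 and MultiQC 1.14 for quality, per the submitters' processing notes), used DESeq2 after a filter on low counts, merged protein-coding genes that share a symbol, made rlog values and took out 3 surrogate variables. The deposited values are log2 values of 20301 genes in 23 samples, between -1.35 and 23.4. Counts were not analysed here, so the study's DESeq2 test was not run and the depth that limits the precision is unknown.

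Groups were taken from the sample titles. All genes were fitted with limma 3.58.1 (R 4.3.3) as 4 group means in 1 fit with a variance trend, with 16 residual degrees of freedom in place of 19, since the samples spanned 16 dimensions within groups. Tests covered the 6 pairs of groups and the LPS by HI interaction, with Benjamini-Hochberg adjustment over all genes of each comparison. A ligand passed at an adjusted p under 0.05, because rlog shrinks low genes, and passing the study's fold change of 2 as well is given beside it. The exact Wilcoxon test (two-sided, on ranks) was an alternative for the 6 pairs. The fit was tested on simulated data with known changes.

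Named are all ligands by their role, those past the test in any comparison, and Cxcl13, Ccl2, Cxcl1, Cxcl2, Cxcl10 and Cx3cl1 with their values, and the listed receptors, inducers and cell markers where past the test or for a range. The ligands and the lists were chosen with earlier results of these data known. The listed genes Cxcl5, Ccl8, Ccl13, Ccl21, Ccr1, Ccr4, Ccr8, Ppbp, Cd3g, Gp1bb, Chil3, Cldn5 and Ly6c1 were not analysed here, and some other listed genes are not reported here.

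Alternatives were the degrees of freedom, no variance trend, robust variances, array weights (whose estimation stopped before its tolerance was met), fitting a pair of groups alone, a replicate block, a block of library series, a filter on the lowest 25% of genes, centring on medians, quantile normalization, fold thresholds of 1.5 and 2, the exact Wilcoxon test and leaving out each sample. Promoter sequences and neighbouring genes were taken from RefSeq tables of GRCr8, in which all 32 symbols occurred and 26 had a promoter, and none was found for Ccl2, Ccl3, Ccl4, Ccl5, Ccl11 and Cxcl3. Python 3.11.15 with numpy 2.4.6, pandas 2.3.3 and matplotlib 3.10.9 was used.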

Additional observations from a re-analysis of the deposited data

Results flagged for a closer look

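Single samples far from the rest of their group were sought in 128 combinations of ligand and group with Dixon's test, and 10 were found, where chance gives about 1 in 20 groups. In LPS, Ccl3 in replicate 4 had a log2 level of 13.8081 (the others 13.99 to 14.07), Ccl26 in replicate 4 of -0.357412 (the others -0.461 to -0.448) and Cxcl12 in replicate 5 of 8.72301 (the others 9.22 to 9.28). In LPS/HI, Cxcl9 in replicate 1 was at 2.98167 (the others 3.26 to 3.39) and Cxcl17 in replicate 3 at 8.43797 (the others 7.81 to 8.004). Replicate 5 of LPS/HI stood apart for Ccl26 at -0.404812 (the others -0.447 to -0.433), Cxcl14 at 5.05959 (the others 4.21 to 4.53) and Xcl1 at 1.3781 (the others 1.25 to 1.29). In NaCl/HI, Cxcl9 in replicate 2 was at 3.70408 (the others 2.78 to 3.08), and in Sham, Ccl11 in replicate 6 at 3.09211 (the others 2.84 to 2.91). Of these genes, Cxcl17 is the only one that passed the limma test in a comparison.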

How the results depend on the processing

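The numbers of ligands past the test were 6 in LPS against Sham, 0 in NaCl/HI against Sham, 3 in LPS/HI against Sham, 2 in LPS/HI against LPS, 1 in LPS/HI against NaCl/HI, 6 in LPS against NaCl/HI and 0 for the interaction, and none of the 18 log2 differences that passed changed its sign under any alternative. The signs of differences that did not pass were not followed. With array weights they were 2 in NaCl/HI against Sham, 18 in LPS/HI against Sham, 8 in LPS/HI against LPS, 14 in LPS/HI against NaCl/HI and 4 for the interaction. With 19 degrees of freedom, which ignores the removed variables, they were 1, 6 and 1 in NaCl/HI against Sham, LPS/HI against Sham and the interaction. LPS/HI against Sham had 5 without the lowest 25% of genes and 5 with the exact Wilcoxon test. LPS/HI against LPS had 1 without the variance trend and with robust variances and 0 with only its groups. LPS/HI against NaCl/HI had 0 in each of these 3, and 0 with a block of library series, median centring and quantile normalization. The interaction had 1 with robust variances, without the lowest 25% of genes and with median centring. At a fold change above 2, 0 remained in LPS against Sham, LPS against NaCl/HI, LPS/HI against LPS and LPS/HI against NaCl/HI, and 1 in LPS/HI against Sham, and at 1.5, 0 in LPS/HI against LPS and LPS/HI against NaCl/HI. The exact Wilcoxon test gave 0 in LPS against NaCl/HI, LPS/HI against LPS and LPS/HI against NaCl/HI. In the first 2 it could call no ligand, since the smallest possible p adjusted to 0.0593 and 0.104 (exact test). The causes were not tested.

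Leaving out 1 sample gave 5 to 7 in LPS against Sham, 0 to 2 in NaCl/HI against Sham, 3 to 5 in LPS/HI against Sham, 0 to 2 in LPS/HI against LPS, 0 to 1 in LPS/HI against NaCl/HI, 6 to 7 in LPS against NaCl/HI and 0 to 1 for the interaction. The 2 in NaCl/HI against Sham came without NaCl/HI replicate 4. The 5 in LPS/HI against Sham came without LPS replicate 5, LPS/HI replicate 1 or NaCl/HI replicate 4, and the 1 for the interaction without LPS replicate 3, LPS/HI replicate 3 or NaCl/HI replicate 4. In LPS/HI against LPS, 0 remained when replicate 1 or 4 of LPS, or replicate 1, 2 or 5 of LPS/HI, was left out, and 1 without replicate 2 or 5 of LPS or replicate 6 of LPS/HI.

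Samples of the same replicate number showed no common deviation (33 pairs, correlation of deviations -0.475 to 0.470, median -0.03). The 3 surrogate variables had been removed before, which can take out shared structure. The check therefore cannot tell whether samples of the same number were handled together. With a replicate block the counts were 5 in LPS against Sham, where Cxcl13 was lost, 3 in LPS/HI against Sham, 6 in LPS against NaCl/HI, 0 in LPS/HI against LPS and 0 in LPS/HI against NaCl/HI. Cxcl13 in LPS/HI against Sham passed under all 36 alternatives. The depth per sample is unknown, and the rlog values of low genes such as Ccl20, Ccl26 and Xcl1 limit what could be detected.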

Other observations

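Extreme values of the ligands were not spread evenly over the samples. Of the 32 ligands, the highest value of the group came from LPS replicate 3 for 13 and from Sham replicate 3 for 12. The lowest came from Sham replicate 1 for 11, from LPS replicate 4 for 11 and from NaCl/HI replicate 2 and LPS/HI replicate 4 for 10 each. LPS/HI replicate 2 was at neither end for any ligand. In LPS replicates 3 and 5, Ccl9 was at 9.70 and 9.65 while the other 3 were between 8.02 and 8.13, and in Sham replicates 2 and 3 it was at 9.38 and 9.44 while the other 4 were between 8.15 and 8.43. No cause was tested.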
